A study of Mus musculus with 28 samples.

Results

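The loss of HRas was set against the loss of NRas in lungs of untreated newborn mice, over every gene that the array names. The arrays were chosen by their source label alone: 3 are labelled HRas-KO and 3 NRas-KO, both without treatment, so 6 of the 28 arrays of the series carry the comparison. All animals were taken on postnatal day 0, and each array holds RNA of the whole lung of 1 animal, so replicates are separate animals. The sources used here do not give the strain, the type of mutation, the sex or the litter of the animals. HRas-KO animals are HRAS-deficient, NRas-KO animals are NRAS-deficient, and DKO animals lack both, per the labels. The 3 untreated Control arrays served as a reference, and 3 HRas-KO+NAC and 3 NRas-KO+NAC arrays gave the same genotype comparison in other animals, whose mothers received 0.5% N-acetyl cysteine (NAC, an antioxidant) while pregnant. The treatment note names 3 samples by number as exposed, while the sample labels assign NAC to all arrays of the NAC groups. The titles of the HRas-KO+NAC arrays do not mention NAC, so that group rests on its source label. The comparison asks which genes depend more on one isoform than on the other.

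HRas and NRas are small GTPases that switch between an inactive GDP-bound and an active GTP-bound state at membranes. Exchange factors such as Sos1 load them with GTP, GTPase-activating proteins return them to the inactive state, and active Ras engages the RAF, MEK and ERK kinases and the PI3K pathway. The isoforms have almost the same catalytic domain and differ mainly in the tail that carries their lipid anchors. In the developing lung, growth factor signalling through Ras and ERK acts in branching and in the choice between alveolar cell fates.

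Values are log2 RMA values, which have no detection call, and a difference is always HRas-KO minus NRas-KO, so a positive value means a higher level in HRas-KO. Arrays are listed in the order of replicates 1 to 3, and groups are said to overlap unless every array of one reads above every array of the other. Medians of the 6 arrays lay between 5.27 and 5.34, and arrays correlated with each other at 0.9833 to 0.9933. The lung genes Sftpb and Cldn18 read 12.45 to 12.84 and 9.72 to 10.13 on them. Xist was high on 2 of 3 arrays of each genotype, so the genotypes did not differ in that count. The code that ends each sample title started with C117, C118 and H058 in HRas-KO and with C118, H058 and H058 in NRas-KO, and what these starts stand for is not stated.

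No gene passed the test. With limma fitted to all 28 arrays and Benjamini-Hochberg adjustment over 22180 genes, 0 genes had an adjusted p under 0.05 (0.0%), and the smallest adjusted p was 0.29. An unadjusted p under 0.05 was reached by 379 genes (1.71%), 188 with a higher level in HRas-KO (0.848%) and 191 in NRas-KO (0.861%). On average 1109 would be reached by chance if no gene differed. Genes are not independent, which widens the spread around that number. The groups did not overlap for 1794 genes (8.09%), 876 higher in HRas-KO (3.95%) and 918 higher in NRas-KO (4.14%). The median difference was 0.003, and 5% and 95% of genes lay below -0.22 and 0.22, with a median standard error of 0.14. A difference over 1 on the log2 scale was seen in 15 genes, 3 higher in HRas-KO and 12 in NRas-KO, and in 3 of the 15 (Nppa, Krt10 and Car3) the groups did not overlap. All genes below are therefore described by level, and none of their differences passed the adjusted threshold.

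Nras itself (probe set 17401117) followed the labels. It read 8.33, 8.12 and 8.35 on the HRas-KO arrays and 7.77, 7.72 and 7.58 on the NRas-KO arrays, against 8.07, 8.30 and 8.35 in Control. Every NRas-KO array was below every array of the other 2 groups, and HRas-KO and Control overlapped. The difference was 0.58 ± 0.12 (SE), or 1.49-fold (limma, unadjusted p = 7.6e-05, adjusted p = 0.56), with HRas-KO 0.02 ± 0.12 above Control and NRas-KO at -0.55 ± 0.12 from the same Control arrays. It was 0.35 within the code start C118 and 0.70 within H058. The labels do not say which exons the mutation removes, so the remaining signal in NRas-KO is not a measure of intact transcript. Hras was not analysed here, so the labels of the HRas-KO arrays were not checked by their target.

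Capza1, the alpha-1 subunit of the protein that caps the fast-growing ends of actin filaments, had the smallest p of any gene. Its values were 9.09, 9.16 and 8.84 in HRas-KO, 8.55, 8.45 and 8.53 in NRas-KO and 8.85, 8.68 and 8.96 in Control. The genotypes did not overlap, all NRas-KO arrays were below all Control arrays, and HRas-KO and Control overlapped. The difference was 0.52 ± 0.10, or 1.44-fold (limma, unadjusted p = 2.2e-05, adjusted p = 0.29), and 0.61 within C118 and 0.35 within H058. A second, much dimmer Capza1 probe set (17548975), which read 4.16 to 4.38 on the 6 arrays, gave a difference of 0.12 with overlapping groups, so the probe sets disagree in size. With NAC, Capza1 read 9.39, 9.18 and 9.33 in HRas-KO+NAC and 9.05, 8.84 and 9.13 in NRas-KO+NAC, again without overlap (0.30 ± 0.10). In the untreated DKO, which also lacks NRas, the 5 arrays read 8.64 to 8.76, above every NRas-KO array and below every HRas-KO array.

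**Figure D1:**
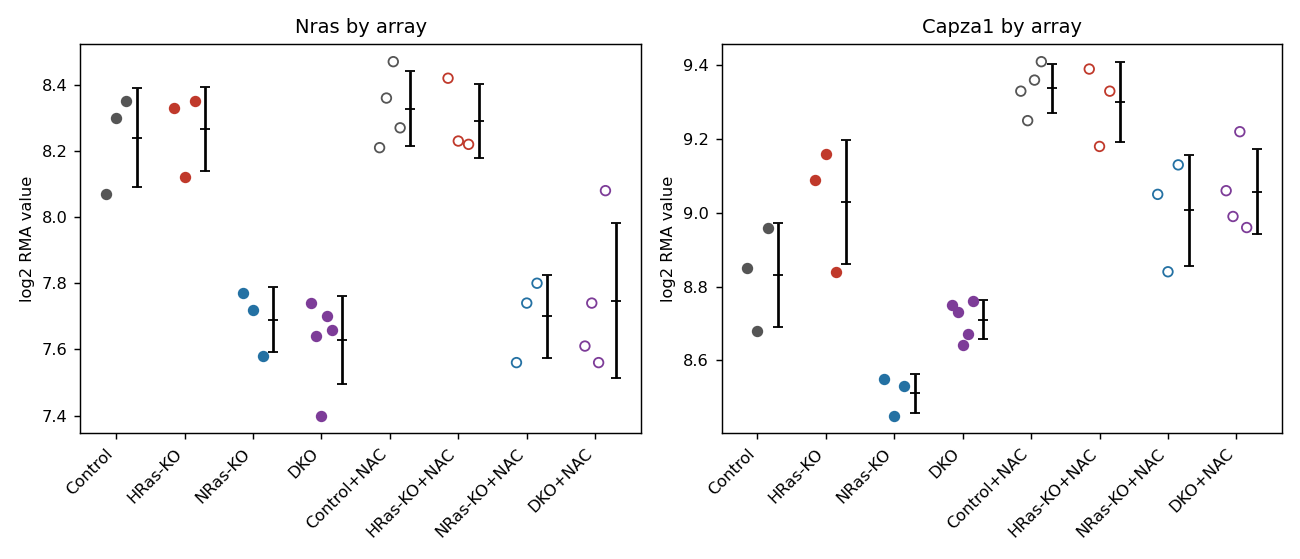
Level of Nras (left) and Capza1 (right) on each array (points; log2 RMA value, y axis) in the 8 groups (x axis), with group mean and SD (black bars); open points mark NAC groups. Untreated NRas-KO arrays sit at 7.58 to 7.77 for Nras and 8.45 to 8.55 for Capza1, below all HRas-KO arrays.

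Capza1 lies on chromosome 3 like Nras, 21 measured genes away by the gene order of RefSeq (GRCm38.p6), so the genes around Nras were examined as a block. Among the 50 nearest measured neighbours, 25 on each side, Capza1 was the 1 gene higher in HRas-KO without overlap, and 3 (Vangl1, Sycp1 and Slc16a1) were higher in NRas-KO without overlap. The neighbours had a median difference of 0.0, and apart from Capza1 they lay between -0.45 and 0.35. Slc16a1, which encodes a lactate transporter, had the lowest value (-0.45 ± 0.18, unadjusted p = 0.019). The count of 4 in 50 without overlap is close to the 8.09% of all genes.

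**Figure D2:**
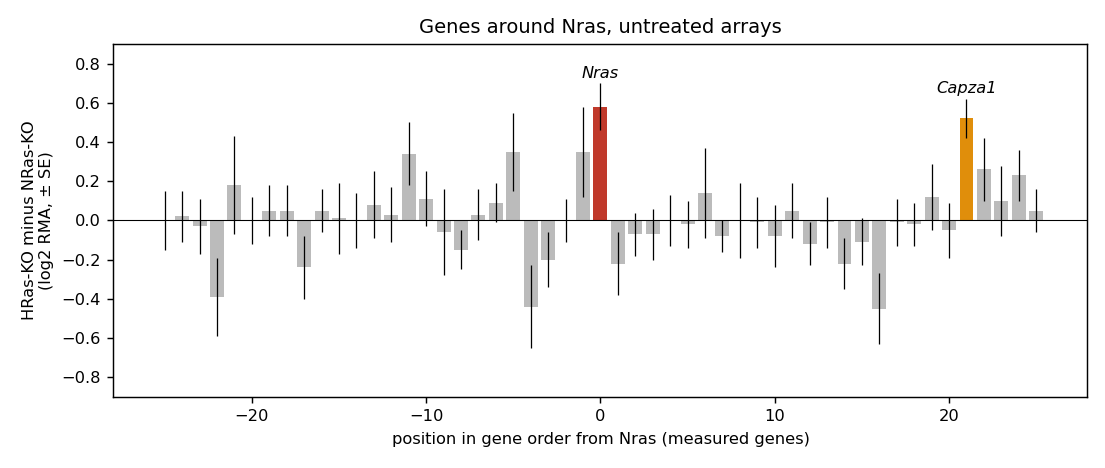
Difference between HRas-KO and NRas-KO (bars, log2 RMA, ± SE) for Nras and its 50 nearest measured neighbours in gene order (x axis, number of measured genes from Nras). Nras (0.58) and Capza1 (0.52) stand above the others, which lie between -0.45 and 0.35.

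Other Ras genes were similar in level between the genotypes. Of 14 measured members of the Ras family, Nras was the 1 member whose groups did not overlap (7.14%, against 8.09% of all genes). The median of the family was 0.02. Rras (R-Ras), an abundant relative that acts on integrin adhesion, read 10.07, 10.28 and 10.03 in HRas-KO and 10.09, 9.59 and 9.76 in NRas-KO (0.31 ± 0.20), with overlap. Rheb, the GTPase that activates mTORC1, had 0.15 ± 0.13, and Rap1b, Rras2, Rala, Rap2a, Rit1, Diras1 and Rap2b lay between -0.03 and 0.06. The lowest value was that of Rasd1, a dexamethasone-inducible Ras relative (-0.39 ± 0.34), which read 6.74 and 6.76 on NRas-KO replicates 2 and 3 and 5.67 on replicate 1. The genes that turn Ras on and off or bind it gave the same picture: 2 of 36 did not overlap (5.56%, against 8.09% of all genes). None of the 36 reached an unadjusted p under 0.05, and the median was 0.0. Those 2 were Spred3, an inhibitor of RAF activation (0.24 ± 0.15), and Rasgrp2, a calcium-regulated exchange factor of Rap (0.23 ± 0.17). Shoc2, a scaffold that helps to activate RAF, had 0.23 ± 0.11 and Ptpn11, the phosphatase SHP2, 0.21 ± 0.10, both with overlap.

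Downstream of Ras, none of 14 measured genes of the RAF, MEK and ERK cascade separated the genotypes (0 without overlap against 8.09% of all genes). The median of the cascade was 0.06. Braf read 9.54, 9.44 and 9.64 in HRas-KO and 9.39, 9.64 and 9.60 in NRas-KO, and its difference was -0.0 ± 0.09. Values of the kinases Araf (0.08 ± 0.10), Map2k1 (-0.06 ± 0.19) and Map2k2 (0.13 ± 0.15) were each within about 1 standard error of 0. The highest value of the cascade was that of Mapk7, which encodes ERK5 (0.21 ± 0.13). Transcripts that ERK activity induces, and that feed back on it, are a readout of the pathway at the level of RNA. Of 18 measured, 3 did not overlap (16.7%, against 8.09% of all genes), 1 higher in HRas-KO and 2 higher in NRas-KO. None reached an unadjusted p under 0.05, and the median was -0.01.

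The 3 pointed in different directions. Etv5, an ETS factor used by alveolar type 2 cells, read 9.16, 9.06 and 8.83 in HRas-KO and 8.82, 8.54 and 8.79 in NRas-KO (0.30 ± 0.17). Spry4 and Spry2, Sprouty inhibitors of receptor signalling, had -0.48 ± 0.38 and -0.25 ± 0.28. For Spry4 the NRas-KO arrays read 8.26, 8.94 and 8.48 and the HRas-KO arrays 8.02 to 8.18, while the Control arrays spanned 7.53 to 8.48. Dusp6, the phosphatase that inactivates ERK, read 9.18, 9.73 and 9.32 in HRas-KO and 9.70, 9.54 and 9.72 in NRas-KO (-0.24 ± 0.24), with overlap. Spry1, Spred1, Spred2 and Dusp5 lay between -0.06 and 0.0. Etv4 had -0.02 ± 0.13 and cyclin D1 (Ccnd1) 0.13 ± 0.24.

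Among genes brighter than the dimmest 40%, those with the smallest p-values and the largest differences without overlap were examined one by one. Apart from Nras and Capza1, the genes with a higher level in HRas-KO were Nppa, Mucl3, Nnt, Gpatch4, Tbx20, Cap2, Phf11a, Adam15 and Nfam1. Mucl3, which encodes a mucin-like protein of epithelia, read 7.09, 6.41 and 6.81 in HRas-KO and 6.20, 5.53 and 6.11 in NRas-KO (0.82 ± 0.24, unadjusted p = 0.0023). Control arrays, at 6.03, 6.63 and 6.46, overlapped both. Nnt, the mitochondrial transhydrogenase that makes NADPH, read 7.64, 7.89 and 7.94 against 7.38, 6.94 and 7.17 (0.66 ± 0.26), with Control between the group means at 7.31 to 7.57. Cap2, an actin-binding protein of striated muscle, read 7.31, 6.77 and 6.67 against 6.59, 6.15 and 6.39 (0.54 ± 0.15). HRas-KO replicate 1 was the highest of the 6 arrays for both Mucl3 and Cap2.

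Differences of the remaining genes of that side were smaller. Gpatch4, a nucleolar G-patch protein, had 0.58 ± 0.19 and Phf11a, a PHD finger gene, 0.48 ± 0.15. Nfam1, a receptor of immune cells, had 0.41 ± 0.15. Adam15, a membrane-bound metalloprotease, also had 0.41 ± 0.14, but 0.03 within the code start C118 against 0.57 within H058, and its second probe set gave -0.05. With NAC, Mucl3 (-0.39 ± 0.24), Nnt (-0.43 ± 0.26), Gpatch4 (-0.25 ± 0.19), Phf11a (-0.20 ± 0.15) and Nfam1 (-0.14 ± 0.15) had estimates of the opposite sign, all with overlap.

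Genes with a higher level in NRas-KO were Krt10, Alms1, Sox6, Dnah5, Scarna10, Hace1, Vps41, Pde3b, Ldlrad2, Lysmd3, Rabggtb, Kcne4, Scarna6, Rnu3a and Prkg2. Alms1, a protein of centrosomes and the base of cilia, read 6.66, 6.79 and 6.70 in HRas-KO and 6.89, 7.38 and 7.27 in NRas-KO (-0.46 ± 0.12, unadjusted p = 0.00057). Kcne4, a potassium channel subunit, read 6.16, 5.84 and 6.55 against 6.61, 7.04 and 7.25 (-0.78 ± 0.30), and Control arrays (6.34, 7.05 and 6.79) overlapped both groups. Pde3b, a cyclic nucleotide phosphodiesterase, read 6.83, 6.81 and 6.79 in HRas-KO and 6.85, 7.48 and 7.46 in NRas-KO (-0.45 ± 0.16). For Pde3b the groups are apart by NRas-KO replicates 2 and 3, and replicate 1 lies beside the HRas-KO arrays. The same 2 arrays were the highest of the NRas-KO group for Alms1, Sox6 (a SOX transcription factor, -0.36 ± 0.12), Hace1 (an E3 ubiquitin ligase, -0.29 ± 0.10), Vps41 (of the lysosomal HOPS complex, -0.33 ± 0.12), Lysmd3 (-0.38 ± 0.14), Rabggtb (a subunit of the Rab prenylating enzyme, -0.82 ± 0.47) and Prkg2 (a cGMP-dependent kinase, -0.62 ± 0.25).

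Those 2 arrays are also the NRas-KO arrays with the code start H058. Within C118, a single array of each genotype, the difference was -0.10 for Alms1, -0.09 for Sox6, -0.04 for Pde3b and -0.06 for Rabggtb. Within H058, 1 HRas-KO against 2 NRas-KO arrays, the values were -0.63, -0.45, -0.68 and -1.27. Rabggtb was -0.47 without NRas-KO replicate 3 and turned to 0.06 with the small nucleolar RNA mean as a covariate, which was chosen after seeing the data. Whether the code start has a part in these differences was not tested beyond the fits that include it. HRas-KO replicate 3, which has the same code start, read 6.70 for Alms1, 6.32 for Sox6, 6.79 for Pde3b and 5.52 for Rabggtb. These genes were chosen for groups without overlap, so it had to lie below the NRas-KO arrays.

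**Figure D3:**
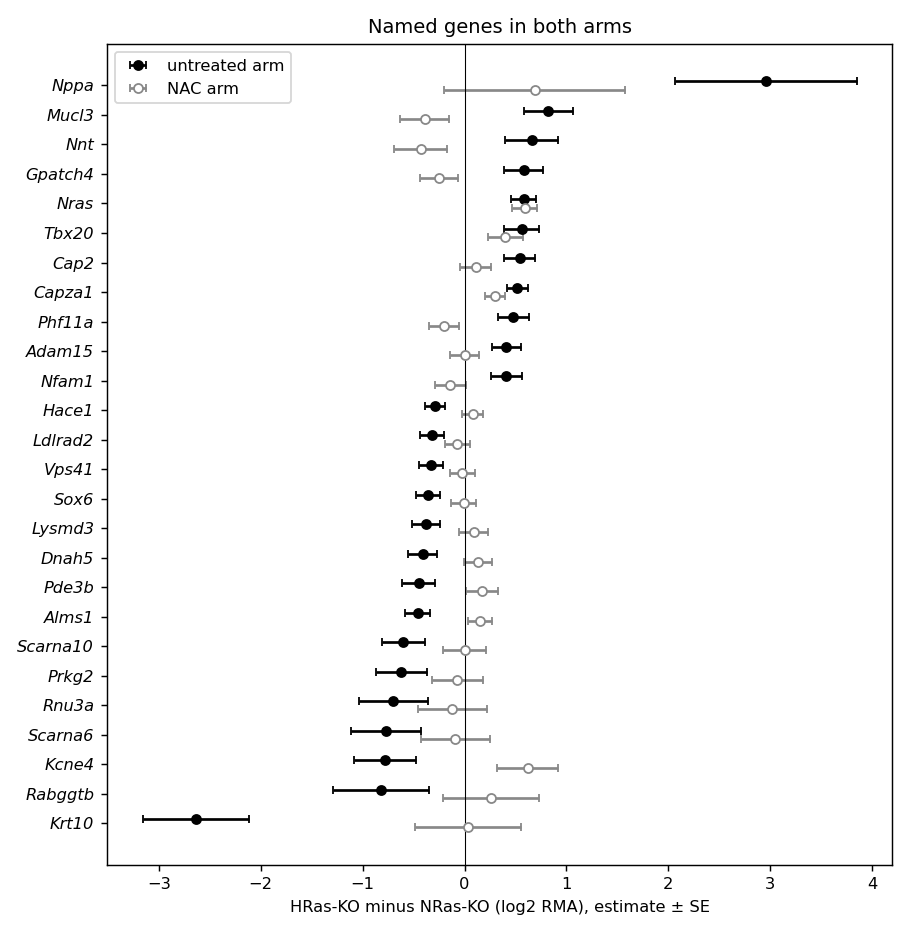
Difference between HRas-KO and NRas-KO (x axis, log2 RMA, ± SE) of the 26 genes chosen from the untreated arrays (filled) and of the same genes in the NAC arm (open, grey). Nppa (2.96) and Krt10 (-2.64) have the largest untreated differences, and Nras (0.58 and 0.59) is nearly the same in both arms.

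The largest difference was in a heart gene. Nppa, which encodes the atrial natriuretic peptide of heart muscle cells, read 10.72, 9.39 and 6.53 in HRas-KO and 6.03, 5.88 and 5.85 in NRas-KO, with Control at 6.09 or below. HRas-KO replicates 1 and 2 were far above all other untreated arrays, and replicate 3 was close to them, so the difference of 2.96 ± 0.89 (7.77-fold, unadjusted p = 0.0026) rests on 2 animals. It was 3.36 within C118 and 0.67 within H058. Of 34 measured genes of heart muscle, 28 had a higher estimate in HRas-KO, 5 were higher there without overlap (3.95% of all genes were), 7 reached an unadjusted p under 0.05 (0.848% of all genes in that direction), and the median was 0.21. The median was 0.09 without HRas-KO replicate 2. The mean of the list, as a deviation from its mean over the 9 untreated Control, HRas-KO and NRas-KO arrays, was 0.32, 0.41 and -0.15 on the HRas-KO arrays, -0.12, -0.04 and -0.14 on the NRas-KO arrays and -0.22 to 0.0 in Control.

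The other heart genes had smaller differences. Bmp10, a ligand made by the trabeculae and atria, read 6.56 on HRas-KO replicate 1 and 4.11 to 4.57 on the other 5 arrays (0.92 ± 0.37). Tbx20, a cardiac transcription factor, read 6.60, 7.01 and 6.43 in HRas-KO and 6.01, 6.11 and 6.23 in NRas-KO (0.56 ± 0.17). The troponin genes Tnnt2 (0.59 ± 0.25) and Tnni3 (0.36 ± 0.15), the atrial myosin Myh6 (0.58 ± 0.26) and phospholamban (Pln, 0.67 ± 0.24) were highest on HRas-KO replicates 1 and 2. In whole-lung RNA, fewer cells of a type and less RNA per cell cannot be told apart, and whether the dissected tissue held different amounts of heart or vein muscle was not tested.

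Some keratinocyte genes stood out on the other side. Krt10, a keratin of the outer layers of squamous epithelium, read 5.56, 5.31 and 5.74 in HRas-KO and 5.78, 10.07 and 8.68 in NRas-KO, with Control at 5.65 to 5.70. The groups do not overlap, but NRas-KO replicate 1 lies beside the highest HRas-KO array, and the difference of -2.64 ± 0.52 (6.22-fold, limma, unadjusted p = 2.6e-05, adjusted p = 0.29) rests on replicates 2 and 3. It was -0.46 within C118 and -3.64 within H058. Krt1, the partner of Krt10, read 4.07, 7.63 and 6.05 in NRas-KO and 4.09 to 4.20 in HRas-KO (-1.79 ± 0.42). Filaggrin (Flg), which bundles keratin in the cornified layer, read 4.20, 6.32 and 5.03 against 3.99 to 4.34 (-0.99 ± 0.27).

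Of 35 measured genes of basal and squamous epithelium, 9 reached an unadjusted p under 0.05, all higher in NRas-KO (0.861% of all genes), and 2 did not overlap, which is near the 4.14% of all genes. The median was -0.14, and -0.04 without NRas-KO replicate 2. The estimate was higher in NRas-KO for 26 members and higher in HRas-KO for 9, up to 1.01 ± 0.61 for Sprr1a, with overlap. The genes with an unadjusted p under 0.05 are Krt10, Krt1, Flg, Krtdap, Lor, Serpinb5, Dmkn, Dsc1 and Lce1a1, most of which belong to differentiated epidermis. Krtdap (-1.01 ± 0.29), Lor (-0.61 ± 0.21) and Dmkn (-0.52 ± 0.18) repeated the order of Krt10, with replicate 2 highest and replicate 3 next. The mean of the list was -0.11, 0.52 and 0.13 on the NRas-KO arrays and -0.13 to -0.04 on the HRas-KO and Control arrays. Without NRas-KO replicate 1, Krt10 (-3.84), Krt1 (-2.71), Flg (-1.48), Krtdap (-1.54) and Serpinb5 (-0.83) passed the adjusted threshold. Neither Krt10 (0.03 ± 0.52) nor Krt1 (0.07) was higher in NRas-KO with NAC.

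Muscle and liver genes varied between single animals. The mean of 35 skeletal muscle genes was 0.65 on NRas-KO replicate 2 and 0.32 on Control replicate 3, and -0.17 to -0.11 on the remaining arrays of these groups. The median difference of that list was -0.22. Without overlap, 2 members were higher in HRas-KO and 1 in NRas-KO (8.57% together, against 8.09% of all genes). An unadjusted p under 0.05 was reached by 2, Tnni2 (-0.58 ± 0.26) and Mylpf (-0.86 ± 0.41), against 1.71% of all genes. Without NRas-KO replicate 2 the median was 0.0. The fetal myosin Myh8 read 7.65 on NRas-KO replicate 2, 6.84 on Control replicate 3 and 4.33 to 4.67 on the other arrays of these groups. Albumin (Alb), a liver secretory protein, read 8.19, 10.60 and 6.10 in HRas-KO and 9.72, 9.34 and 11.35 in NRas-KO (-1.84 ± 1.09), and Ahsg and Afp (-1.54 and -1.16) followed the same order of arrays. HRas-KO replicate 3 was the lowest and NRas-KO replicate 3 the highest array for all 3, while Control spanned 9.18 to 11.22 for Alb.

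**Figure D4:**
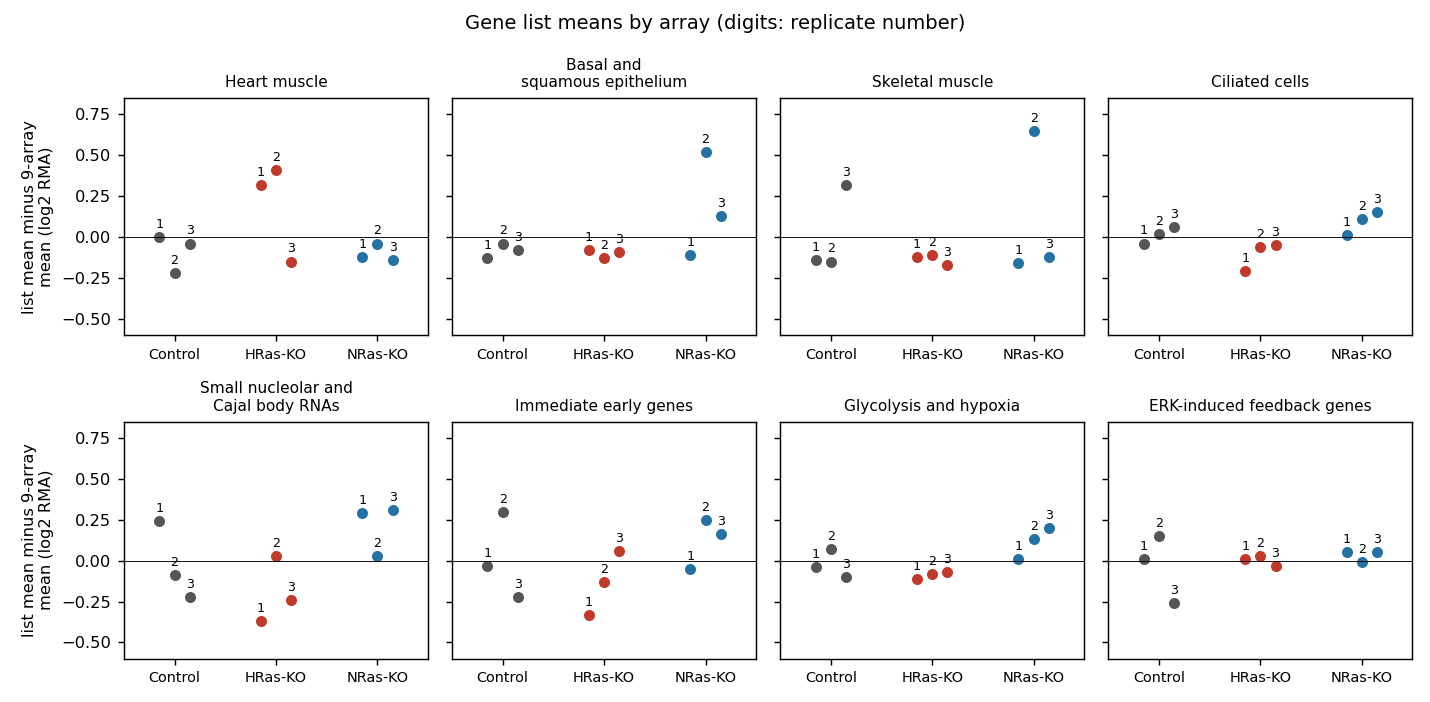
Mean of 8 gene lists on the untreated Control, HRas-KO and NRas-KO arrays (points, numbered by replicate; y axis, log2 RMA relative to the mean of the 9 arrays). Heart muscle is high on HRas-KO replicates 1 and 2 (0.32 and 0.41), squamous epithelium and skeletal muscle on NRas-KO replicate 2 (0.52 and 0.65), and the ERK feedback genes lie between -0.03 and 0.05 on all 6 knockout arrays.

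Gene lists of the lung epithelium other than ciliated cells had medians near 0. Surfactant and alveolar type 2 genes had a median of 0.04 over 25 measured. Without overlap, 2 members were higher in HRas-KO and 1 in NRas-KO (12.0%, against 8.09% of all genes). Napsa, the protease that processes surfactant protein B, read 10.15, 10.08 and 10.05 in HRas-KO and 9.99, 9.64 and 9.95 in NRas-KO (0.23 ± 0.10, unadjusted p = 0.038). Sftpb itself had 0.17 ± 0.12 with overlap, and Cebpa, a transcription factor of type 2 cells, -0.18 ± 0.18 without overlap. Among 18 alveolar type 1 genes (median 0.01, 11.1% without overlap), Cldn18, a tight junction claudin, read 10.13 on each HRas-KO array and 10.01, 9.72 and 10.10 in NRas-KO (0.19 ± 0.12). Club cell genes had a median of -0.0 over 17. Of 22 lung epithelial transcription factors (median -0.05), 1 was higher in HRas-KO without overlap (Etv5) and 4 in NRas-KO (22.7% together). The 4 were Foxa1 (-0.12 ± 0.20), Ehf (-0.36 ± 0.22), Grhl2 (-0.21 ± 0.15) and Cebpa.

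Ciliated cell genes leaned towards NRas-KO. Of 26 measured, 24 had a higher estimate in NRas-KO, 6 were higher there without overlap against 4.14% of all genes, 2 reached an unadjusted p under 0.05 that way (0.861% of all genes), and the median was -0.20, or -0.13 without HRas-KO replicate 1. Dnah5, a heavy chain of the outer dynein arms, read 6.31, 6.40 and 6.35 in HRas-KO and 6.65, 6.78 and 6.85 in NRas-KO (-0.41 ± 0.14, unadjusted p = 0.0087). Control arrays, at 6.61, 6.63 and 6.84, were above the HRas-KO arrays and overlapped NRas-KO. Foxj1, the master regulator of motile cilia, read 6.70, 6.74 and 7.11 against 6.91, 7.23 and 7.33 (-0.31 ± 0.14), with overlap. Dynlrb2 (-0.43 ± 0.30), Cfap43 (-0.21 ± 0.14), Hydin (-0.21 ± 0.22), Armc4 (-0.20 ± 0.11) and Ak7 (-0.10 ± 0.20) did not overlap either. The list mean was -0.21, -0.06 and -0.05 in HRas-KO and 0.01, 0.11 and 0.15 in NRas-KO, and with NAC the median of the list was 0.14.

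Genes that respond to low oxygen or to stress mostly had higher estimates in NRas-KO. Of 26 glycolysis and hypoxia genes 22 had a higher estimate in NRas-KO, 5 were higher there without overlap (4.14% of all genes), 4 reached an unadjusted p under 0.05 that way (0.861% of all genes), and the median was -0.17. Egln3, an oxygen-sensing prolyl hydroxylase that is itself induced by hypoxia, read 6.78, 6.88 and 6.97 in HRas-KO and 6.94, 8.32 and 8.09 in NRas-KO (-0.90 ± 0.39). Pdk1, a kinase that limits pyruvate entry into mitochondria, read 6.36, 6.68 and 6.82 against 6.99, 7.17 and 7.03 (-0.45 ± 0.21), and Bnip3 and hexokinase Hk2 had -0.46 ± 0.20 and -0.61 ± 0.28. For Egln3 NRas-KO replicates 2 and 3 were high together with Control replicate 2 (7.64), all of code start H058, while HRas-KO replicate 3 and Control replicate 3 of that code start were not (6.97 and 6.91).

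Immediate early genes had a median of -0.18, and 24 of 26 had a higher estimate in NRas-KO. Ier2 (-0.25 ± 0.15) was the 1 member without overlap (3.85%, against 8.09% of all genes). Atf3, a stress-induced transcription factor, read 7.78, 8.56 and 8.65 in HRas-KO and 8.54, 9.77 and 9.09 in NRas-KO (-0.81 ± 0.32, unadjusted p = 0.019), and Nr4a1, an orphan nuclear receptor, had -0.91 ± 0.47. Their list mean ran from -0.33 to 0.06 in HRas-KO, from -0.05 to 0.25 in NRas-KO and from -0.22 to 0.30 in Control, so the Control animals alone covered most of the range. Clock genes (median -0.17 over 17) had their estimates on the same side in 14 members. Genes of the cell cycle and replication (median -0.12 over 38) had them there in 32, with 0 without overlap against 8.09% of all genes. The cell cycle median was 0.04 without NRas-KO replicate 3 and -0.02 without HRas-KO replicate 2, so its direction rests on 1 animal. The clock median was -0.10 without NRas-KO replicate 2, and the immediate early median -0.10 without HRas-KO replicate 1. Pcna, the sliding clamp of DNA polymerase, read 8.29, 8.19 and 8.47 against 8.30, 8.73 and 9.03 (-0.37 ± 0.16). With NAC the medians of the glycolysis, immediate early, clock and cell cycle lists were 0.05, 0.24, 0.22 and 0.16.

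Small nucleolar and Cajal body RNAs, which guide the modification of ribosomal and spliceosomal RNA, had the lowest median of any list (-0.44 over 78). In 73 of them the estimate was higher in NRas-KO, 12 did not overlap that way (4.14% of all genes) and 1 the other way (3.95%), and 19 reached an unadjusted p under 0.05, all higher in NRas-KO (0.861% of all genes). The median was -0.33 to -0.47 with 1 array left out and -0.23 within the code start C118. Scarna10 read 9.77, 10.41 and 10.26 in HRas-KO and 10.85, 10.49 and 10.88 in NRas-KO (-0.60 ± 0.21), and Control arrays read 10.73, 9.96 and 10.57, across both. Snord89 read 7.47, 7.54 and 7.41 against 8.08, 7.83 and 8.24 (-0.58 ± 0.21). The list mean was -0.37, 0.03 and -0.24 in HRas-KO, 0.29, 0.03 and 0.31 in NRas-KO and 0.24, -0.09 and -0.22 in Control, so HRas-KO replicate 2 and NRas-KO replicate 2 were equal. Many of these RNAs lie in introns of host genes and are short, and what sets their level on these arrays was not tested. Rnu3a, a copy of the U3 RNA, had -0.70 ± 0.34 and Scarna6 -0.77 ± 0.34. Without HRas-KO replicate 1 they were -0.42 and -0.40, and with the mean of these RNAs as a covariate, an alternative chosen after seeing the data, Scarna6 turned to 0.002.

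Lists of the other cell types had medians between -0.09 and 0.08. Endothelial genes had a median of -0.02 over 30, with 1 not overlapping (3.33%, against 8.09% of all genes). Eng, a TGF-beta co-receptor, read 11.16, 11.13 and 10.73 against 10.88, 10.25 and 10.44 (0.48 ± 0.19), with overlap. Macrophage and monocyte genes had a median of 0.05 over 23, and Itgax, an integrin of macrophages and dendritic cells, read 4.98, 5.07 and 4.81 against 4.66, 4.25 and 4.61 without overlap (0.44 ± 0.16, unadjusted p = 0.0095). Neutrophil genes (median 0.08 over 26) had 0 members without overlap, against 8.09% of all genes. Their mean was 0.45 on NRas-KO replicate 1 and -0.36 and -0.34 on replicates 2 and 3. In smooth muscle, Synpo2, an actin-bundling protein, read 5.57, 5.49 and 5.57 against 5.76, 5.81 and 5.88 (-0.27 ± 0.10), and the list of 22 had a median of 0.08. Mesothelial genes (median -0.06 over 15) included Aldh1a2, which makes retinoic acid, at 6.26, 6.71 and 5.86 against 7.15, 6.66 and 7.31 (-0.76 ± 0.30), with overlap. Fibroblast, lymphocyte, cartilage and neuroendocrine lists had medians of 0.01, -0.03, -0.02 and 0.06. Those of erythroid cells, mast cells and adipocytes were -0.09, -0.07 and 0.07. The neuron and Schwann cell list had a median of 0.05 over 18. Without overlap, 2 of its members were higher in HRas-KO and 3 in NRas-KO (27.8% together, against 8.09% of all genes).

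The metabolic genes that the series title names for the double knockout had no larger share without overlap than all genes (8.09% either way). Sphingolipid enzymes had a median of 0.04 over 43, with 3 higher in HRas-KO and 0 in NRas-KO without overlap. That share, 6.98%, is near the 8.09% of all genes, and 0 had an unadjusted p under 0.05 by limma. Cers2, a ceramide synthase of very long acyl chains, read 8.95, 8.97 and 8.91 against 8.80, 8.68 and 8.88 (0.15 ± 0.09). Oxidative phosphorylation genes had a median of -0.02 over 65, 1 without overlap (1.54%), and a range of -0.34 to 0.24. Glutathione, thioredoxin and NRF2 genes had a median of 0.02 over 27, and the largest value was that of Gclc, which starts glutathione synthesis (0.57 ± 0.33; 11.40, 11.01 and 10.70 against 10.88, 10.16 and 10.36). Of 25 glucocorticoid-induced genes (median -0.03), Fkbp5, a chaperone of the glucocorticoid receptor, read 8.24, 8.26 and 8.37 against 8.24, 7.55 and 7.76 (0.44 ± 0.16, unadjusted p = 0.0091). NRas-KO replicate 1 was level with HRas-KO replicate 1 for Fkbp5, and Control read 8.03 to 8.54. Interferon-stimulated genes (median 0.04 over 24), p53 targets (-0.05 over 17), imprinted growth genes (-0.07 over 20) and cholesterol and fatty acid synthesis genes (-0.07 over 25) had no member without overlap. In the latter, Pmvk, a mevalonate pathway kinase, read 9.86, 9.48 and 9.60 against 9.62, 8.93 and 8.93 (0.49 ± 0.21), and among p53 targets Plk2 had -0.66 ± 0.29. The interferon list mean was lowest on replicate 3 of HRas-KO (-0.39) and of NRas-KO (-0.15).

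The genotype comparison in NAC-exposed lungs used no array of the untreated comparison. Here, too, 0 of 22180 genes passed by limma (0.0%), with 1438 at an unadjusted p under 0.05 (6.48%), 718 higher in HRas-KO+NAC (3.24%) and 720 in NRas-KO+NAC (3.25%). The groups did not overlap for 2342 (10.6%), 1314 higher in HRas-KO+NAC (5.92%) and 1028 in NRas-KO+NAC (4.63%). Across genes, which are not independent, the differences of the arms correlated at -0.18 (Pearson; Spearman -0.16). Groups did not overlap in both arms and in the same direction for 49 genes higher in HRas-KO (0.221%) and 37 higher in NRas-KO (0.167%), and in opposite directions for 49 (0.221%) and 67 (0.302%). Of those in the same direction, Nras (0.58 untreated, 0.59 with NAC) and Capza1 (0.52 and 0.30) had the smallest p-values, followed by Tnni3 (0.36 and 0.39), the perforin gene Prf1 (-0.26 and -0.34), Ankrd11 (0.25 and 0.24) and the mitochondrial import gene Tomm40 (0.25 and 0.24).

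In the NAC arm Nras read 8.42, 8.23 and 8.22 in HRas-KO+NAC and 7.56, 7.74 and 7.80 in NRas-KO+NAC (0.59 ± 0.12). Of the other genes with the smallest p-values there, Fbxw4, Cbfa2t2, Phrf1, Zbtb43 and Spag17 had little difference between untreated genotypes. Fbxw4, an F-box protein, read 6.20, 6.59 and 6.27 in HRas-KO+NAC and 6.72, 6.93 and 7.16 in NRas-KO+NAC (-0.59 ± 0.13), against 0.03 ± 0.13 untreated. Rny1, a small RNA bound by Ro60, had -0.81 ± 0.19 with NAC and -0.32 ± 0.19 without. Cbfa2t2, a transcriptional corepressor, Phrf1, Zbtb43 and Spag17, a protein of the ciliary axoneme, had 0.53 ± 0.13, 0.48 ± 0.12, 0.54 ± 0.14 and 0.48 ± 0.12 with NAC and -0.08 to 0.14 without. Ly6g6e, Cyp2d40 and Prr29 had -0.63 ± 0.14, -0.73 ± 0.20 and -0.65 ± 0.17 with NAC. Xist was high on 0 of 3 HRas-KO+NAC and 1 of 3 NRas-KO+NAC arrays, and the code starts were all T453 in the former and T317, T195 and T453 in the latter.

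The test of the difference between the arms called 0 genes (0.0%) by limma, with 1076 at an unadjusted p under 0.05 (4.85%). Of these, 546 had a higher difference with NAC (2.46%) and 530 a lower one (2.39%). The change in the genotype difference from untreated to NAC was 2.67 ± 0.73 for Krt10 (unadjusted p = 0.0012, adjusted p = 0.95), 1.40 ± 0.42 for Kcne4 and -1.21 ± 0.34 for Mucl3. For Nras it was 0.01 ± 0.17. Nppa was high on 1 array of each NAC group, at 10.55 on HRas-KO+NAC replicate 2 and 8.96 on NRas-KO+NAC replicate 2, and 5.53 to 6.23 on the other NAC arrays of these genotypes. The heart list had a median of 0.17 with NAC, beside 0.21 untreated.

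**Figure D5:**
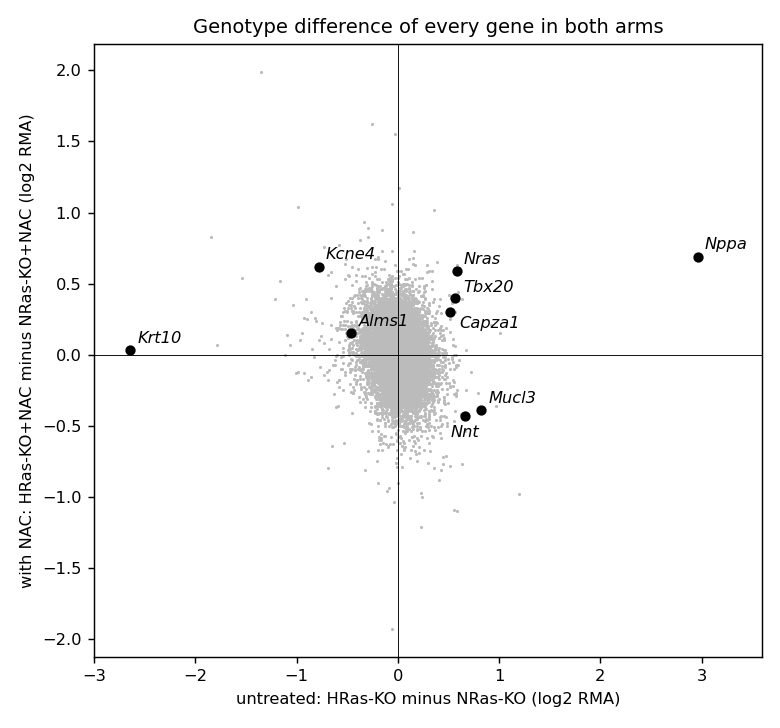
Difference between HRas-KO and NRas-KO of every gene (grey points, 22180 genes, log2 RMA) without NAC (x axis) and with NAC (y axis); black points are labelled genes. Nras, Capza1 and Tbx20 lie at the upper right, and Krt10 (-2.64 untreated) lies near 0 with NAC.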

How the data were processed

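Whole-lung RNA was measured on 1-colour whole-transcript arrays, 1 per animal. The deposited values are log2 values per probe set, made with RMA and affy per the submitters' processing notes; versions, and whether all arrays were normalized together, are not given in the sources used here. Of 41345 probe sets, 23521 had 1 gene symbol in the platform annotation, 1814 several and 16010 none listed. The probe set brightest over all arrays stood for a gene (22180 genes; 1082 had more than 1 set). Columns of other samples numbered 0, and Hras was not analysed here.

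A linear model with 1 mean for each of 8 groups was fitted to 28 arrays (limma 3.58.1, R 4.3.3). After eBayes moderation all groups share 1 spread estimate, with 20 residual degrees of freedom and 5.95 from the prior. Adjusted p-values use Benjamini-Hochberg over all genes with a threshold of 0.05, and the fit was checked on simulated data. The number of arrays limits the precision. Genes named are Nras, then, among genes above the dimmest 40% whose groups do not overlap, the 10 smallest p-values and the 6 largest differences each way (5 each way for NAC), plus the 3 smallest p-values and defining members of each list; the ranking skipped predicted genes, clones, microRNAs, Snor symbols, Y-linked genes and Xist. Other named genes (such as Prf1, Ankrd11, Tomm40, Rps13 and Myh8, the neighbours of Nras, and further list members) were chosen after their values were seen. The members and lists were chosen with earlier results of these data known. Replicate numbers do not pair arrays: same-numbered HRas-KO and NRas-KO arrays deviated from their group means with correlations of 0.15, -0.26 and 0.18. Arrays sharing a code start gave 0.34, 0.26 and 0.18. Alternatives covered probe sets, filters, normalization, moderation, array weights, arrays used, replicate number, code start, Xist, left-out arrays and a 1.2-fold minimum; heart, squamous and small nucleolar RNA means as covariates were added after seeing the data.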

Additional observations from a re-analysis of the deposited data

How the results depend on the processing

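The count of called genes stayed at 0 between untreated HRas-KO and NRas-KO under every alternative except 3: array weights called 3 (Capza1, Krt10 and Nras, adjusted p = 0.016 each by limma), the arrays of code start H058 alone called 1 (Krt10; 1 HRas-KO against 2 NRas-KO arrays, the lone HRas-KO array assumed to vary like the other groups), and without NRas-KO replicate 1 it was 5 (Krt10, Krt1, Flg, Krtdap and Serpinb5). Leaving out 1 array at a time gave 0 to 5 called genes, 173 to 1037 genes at an unadjusted p under 0.05 and 0.52 to 0.65 for Nras. That count of genes at an unadjusted p under 0.05, 379 as reported, was 1499 with array weights, 630 with a fixed block for the code start, 745 with the 6 arrays alone and 113 within the code start C118, where the lone array of each genotype is assumed to vary like the other groups. Without HRas-KO replicate 1 it was 173, without HRas-KO replicate 3 711, without NRas-KO replicate 1 1037 and without NRas-KO replicate 2 197. With the replicate number as a block, which the labels do not support as a pairing, 0 genes were called and 951 had an unadjusted p under 0.05. The difference of Nras with array weights was 0.58 and passed (adjusted p = 0.016). In the NAC arm trended moderation called 1 gene (Olfr360, adjusted p = 0.031), and leaving out arrays gave 0 to 0. The difference between the arms gave 0 to 2 (Krt10 and Krt1 without NRas-KO replicate 1). Of 600 values of the other 25 named genes, 594 kept direction and side of the threshold, 4 passed it, and 2 turned: with the small nucleolar RNA mean as a covariate, chosen after seeing the data, Rabggtb was 0.06 and Scarna6 0.002. Of 1008 list medians 84 moved by more than the spread. The cause of these shifts was not tested. With 3 animals a group and a median standard error of 0.14, small differences cannot be resolved.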

Other observations

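Rps13, a ribosomal protein gene, read either low or high on single arrays, with 3.52, 6.42 and 3.46 in HRas-KO, 6.84, 6.70 and 3.90 in NRas-KO and 6.83 to 6.94 in Control, with a difference of -1.35 ± 1.34. Acute-phase and barrier genes had large differences with overlapping groups. Serpina3n, an acute-phase protease inhibitor, read 9.80, 8.95 and 7.49 in HRas-KO and 8.95, 6.57 and 7.13 in NRas-KO (1.2 ± 0.74). Sprr1a, a cornified envelope protein of the squamous epithelium list, read 8.92 on HRas-KO replicate 1 and 5.72 to 7.14 on the other 5 arrays (1.01 ± 0.61). Its direction was opposite to that of Krt10. Car3, a carbonic anhydrase of muscle and fat, read 4.90, 4.49 and 4.44 against 5.43, 6.68 and 4.99 without overlap (-1.09 ± 0.54), and was highest on NRas-KO replicate 2, the array with the highest skeletal muscle mean.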
